A study of Mus musculus with 2 samples.

Results

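Mast cells and basophils are the rare granulocytes that carry the high-affinity receptor for IgE. They were sought among CD45+ cells (leukocytes) of Colon26 tumours by measured genes. A kept cell was chosen where at least 2 of Cpa3, Mcpt8, Ms4a2, Fcer1a and Gata2 reached 1 CP10k (reads of a gene per 10000 reads of the cell), with C1qa and Trac under 1 CP10k and Siglech under 2 CP10k, which leaves out macrophages, T cells and plasmacytoid dendritic cells. This rule found 83 cells among 7732 kept cells (1.07%), with at least 2 in each of the 14 mice. The cells were thus chosen by the measured levels of these 8 genes, so the levels below that set mast cells and basophils beside other cells, or their subsets beside each other, are given as a description with no test.

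Colon26, a mouse colon carcinoma line, was grown under the skin of wild-type BALB/c mice, and each tumour was 1 hashtagged sample. The minP1 mice (n = 4) received 0.08 µg of minP1, an immunostimulatory peptide of the nucleosome-binding protein HMGN1, into the peritoneum on day 9. The PDL1 mice (n = 3) received 200 µg of anti-PD-L1 antibody (clone 10F.9G2) by the same route on days 4 and 8, and the minP1_PDL1 mice (n = 4) received both agents. The Control mice (n = 3) were untreated; no vehicle or isotype antibody is named in the labels, and tumours of all groups were taken on day 10. The sorted cells came from transplanted tumours, although the labels also call them intestinal. The labels speak of 1 cDNA library and also of separate runs, and give no run for any mouse, so a run and a group cannot be told apart. The number after a group name is the mouse.

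Both cell types store histamine and serine proteases in granules and release them when antigen cross-links IgE on the receptor. Mast cells mature in tissues under Kit ligand and carry chymases and tryptases, of which Cma1, Mcpt4, Tpsb2 and Tpsab1 mark the connective tissue type in mice. Basophils mature in bone marrow, circulate, lack Kit and carry the protease Mcpt8, and are known as early sources of IL-4. Both depend on the transcription factor GATA2.

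Kept cells numbered 466 to 724 per mouse, with 26007834 to 51230461 reads in all and a median of 30312 (minP1_PDL1_3) to 57305 (PDL1_1) reads per cell. At the median of all kept cells, 1 CP10k stood for 3.91 reads, and reads were not collapsed by molecule. No barcode was shared between mice. The labels state that 7613 cells passed the authors' quality check. The mast cells and basophils held a median of 50572 reads and 2310 genes, against 38842 reads in the 7649 other kept cells.

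The cells were split by Mcpt8, the basophil protease, and by 6 mast cell genes. Mast-type cells (51) had Mcpt8 under 1 CP10k and at least 2 of the 6 mast cell genes Kit, Cma1, Tpsb2, Tpsab1, Mcpt4 and Mrgprb2 at 1 CP10k or more. Basophil-type cells (16) had Mcpt8 and at most 1 of those 6 genes. A further 15 cells had both, and 1 cell had neither. Mast-type cells came from all 14 mice, and the basophil-type and the double-positive cells from 10 mice each. Median reads per cell were 52329 in mast-type, 69728 in double-positive and 22222.5 in basophil-type cells.

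**Figure D1:**
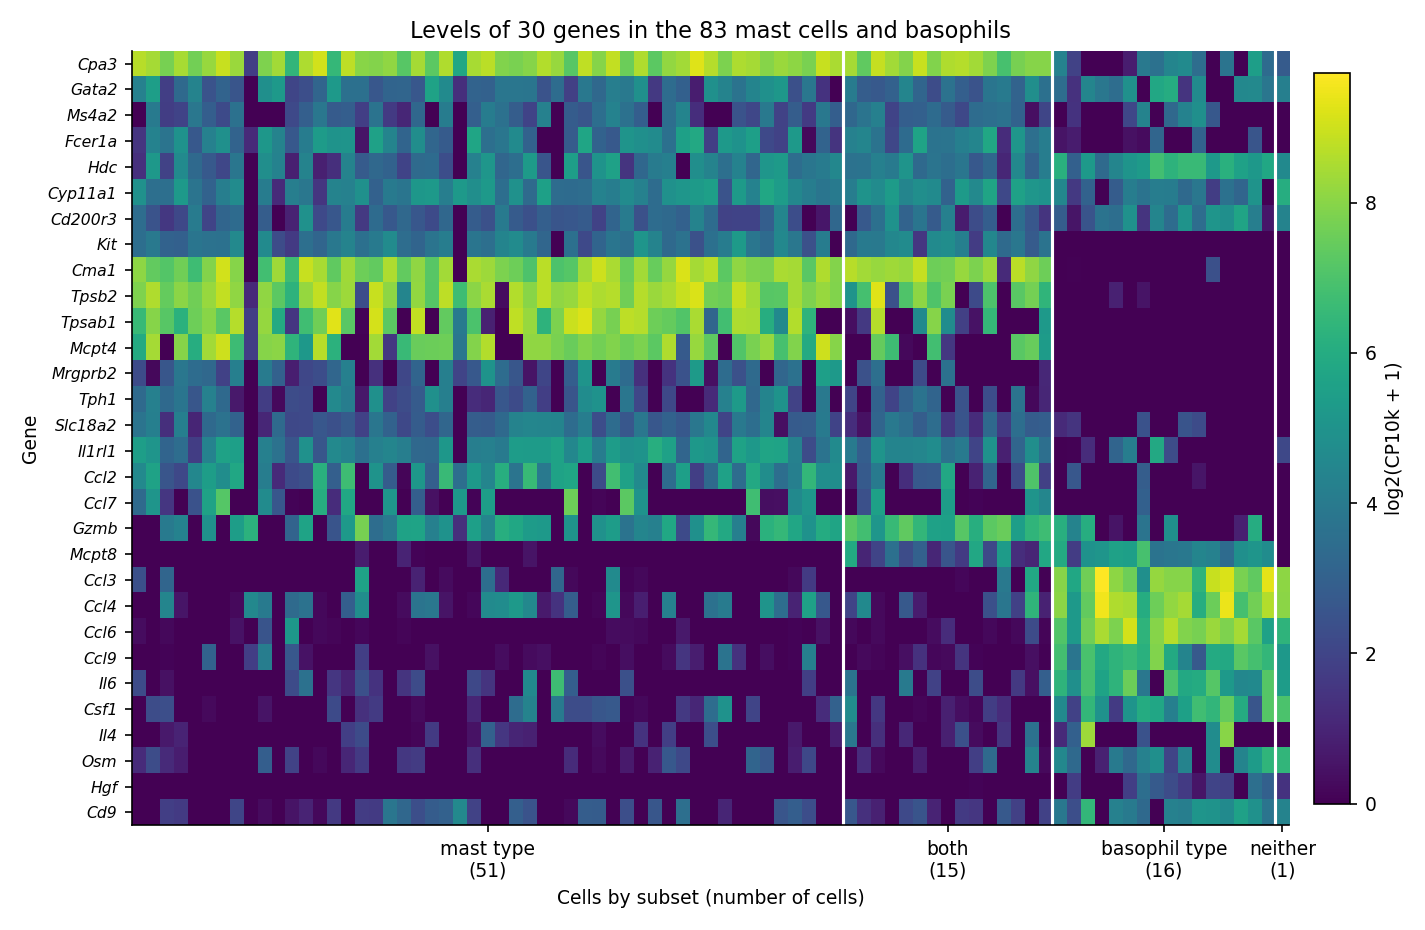
Heat map of log2(CP10k + 1) of 30 genes (rows) in each of the 83 mast cells and basophils (columns), split into mast-type (51), double-positive ("both", 15), basophil-type (16) and remaining (1) cells. Cells with mast cell proteases and cells high in all genes from Ccl3 to Ccl9 stand largely apart, although some cells with mast cell genes also carry Ccl3 or Ccl4. The double-positive cells carry the mast cell block.

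Of the 14 mast cell markers, each was detected in some mast-type cell (summed level 9.82 to 2331 CP10k per cell). Kit, Tpsab1, Mcpt4, Mrgprb2 and Mrgprx2 had no read in any basophil-type cell. The lowest mast-type cell, of minP1_2 with 8149 reads, had 1.23 to 2.45 CP10k of Cpa3, Fcer1a, Tpsb2, Tpsab1 and Mcpt4. It had no read of Kit, Cma1 or Gata2 and 76.1 CP10k of Gzmb. Whether it was a mast cell was not tested, and it is counted among them below. All 14 basophil markers were detected in basophil-type cells (110.2 to 1170 CP10k summed). Of the basophil markers, Prss34, a basophil protease, stayed at a mean of 0.0827 CP10k there and reached 1 CP10k in 1 of 16 cells. In all 83 cells Siglecf, Ccr3, Ear1 and Ear2 (eosinophils), Mmp9 and Ly6g (neutrophils), and Cd79a, Cd79b and Ms4a1 (B cells) had no read. The macrophage list of 10 genes summed to a mean of 5.52 CP10k and the T cell list of 8 genes to 1.03 CP10k, all members of both lists being detected in some cell. The list of ILC2 (group 2 innate lymphoid cells), which includes Il1rl1 and Il13, had the highest summed mean of the other lists. It averaged 21.9 CP10k (up to 72.5 CP10k in a cell), with 6 of 7 genes detected and Il5 without a read. All 6 monocyte genes were detected, with a summed mean of 9.51 CP10k (up to 115.6 CP10k in a cell). In basophil-type cells the monocyte list averaged 29.3 CP10k, and Vcan and Chil3 had no read. Of the neutrophil list 5 of 7 genes were detected (mean 1.29 CP10k, up to 26.3 CP10k) and of the eosinophil list 2 of 6 (mean 0.601 CP10k, up to 15.1 CP10k). Of the NK cell list 5 of 6 genes were detected (mean 3.48 CP10k, up to 99.4 CP10k, Klra8 without a read) and of the conventional dendritic cell list 6 of 8 (mean 2.01 CP10k, up to 68.1 CP10k, Clec9a and Cd209a without a read). Their part in the levels below was not tested.

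Granule proteases differed widely between the subsets. Cpa3, the carboxypeptidase of mast cell granules and a gene of the rule, averaged 297 CP10k in both mast-type and double-positive cells and 10.4 CP10k in basophil-type cells. The chymase Cma1 averaged 258 CP10k in mast-type, 283 CP10k in double-positive and 0.265 CP10k in basophil-type cells. The chymase Mcpt4 averaged 181, 50.3 and 0 CP10k in these subsets, the tryptase Tpsb2 279, 139 and 0.0821 CP10k, and the tryptase Tpsab1 200, 55.5 and 0 CP10k. Mcpt8, also a gene of the rule, averaged 0.0508, 16.7 and 31.8 CP10k. Mcpt1 and Mcpt2, the mucosal mast cell chymases, averaged 0.262 and 3.68 CP10k in mast-type cells, in which 2 and 11 of 51 cells reached 1 CP10k. Ctsg (cathepsin G) averaged 10.96 CP10k in mast-type and 11.9 CP10k in double-positive cells, and 0.805 CP10k in basophil-type cells. Gzmb, the cytotoxic granzyme B, averaged 100.6 CP10k in double-positive cells, in all 15 of which it reached 1 CP10k, against 33.0 CP10k in mast-type cells (41 of 51) and 16.3 CP10k in basophil-type cells (6 of 16). T cells, for comparison, averaged 15.2 CP10k of Gzmb. Several of these proteases are close relatives, and reads shared between Tpsb2 and Tpsab1, or between Mcpt4, Mcpt2 and Mcpt1, could be split by the alignment.

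Of the IgE receptor chains, the alpha chain was far lower in basophil-type than in mast-type cells. Fcer1a and Ms4a2 are genes of the rule, so their levels follow in part from how the cells were chosen. Mast-type cells, with Mcpt8 under 1 CP10k, had to reach at least 2 of the other rule genes. Basophil-type cells, which had Mcpt8, needed at least 1 of them. Fcer1a, the IgE-binding alpha chain, averaged 18.8 CP10k in mast-type, 19.4 CP10k in double-positive and 1.38 CP10k in basophil-type cells, and reached 1 CP10k in 46 of 51, 15 of 15 and 3 of 16 of them. After thinning each cell to 10000 reads, 45 of 48, 15 of 15 and 7 of 16 cells still had a read of Fcer1a. Ms4a2, the beta chain, averaged 6.64, 7.78 and 5.34 CP10k and reached 1 CP10k in 7 of 16 basophil-type cells. Fcer1g, the gamma chain shared with other Fc receptors, lay at 15.9, 15.8 and 10.99 CP10k, against 19.5 CP10k in macrophages. Downstream, the adaptor Lat2 averaged 12.7 CP10k in mast-type and 3.51 CP10k in basophil-type cells, and 0.427 CP10k in T cells. The lipid phosphatase gene Inpp5d, whose product restrains the signal, averaged 5.62 CP10k in mast-type and 0.138 CP10k in basophil-type cells.

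Among transcription factors, Gata2, also a gene of the rule, averaged 13.4 CP10k in mast-type, 10.9 CP10k in double-positive and 18.0 CP10k in basophil-type cells. It averaged 0.0316 CP10k in other kept cells. The other factors differed by subset. Mitf, a mast cell factor, averaged 1.54 CP10k in mast-type and 0.0130 CP10k in basophil-type cells. Tal1 averaged 2.46 CP10k and Hes1 1.501 CP10k in mast-type cells, and neither had a read in basophil-type cells. Cebpa, which favours the basophil over the mast cell fate in mouse progenitors, averaged 0.0455 CP10k in mast-type, 0 CP10k in double-positive and 1.52 CP10k in basophil-type cells. Nfil3 averaged 0.0639, 0.301 and 5.04 CP10k in the same order. Cebpa reached 1 CP10k in 4 of 16 basophil-type cells and in 1 of 51 mast-type cells.

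The promoters of the genes that chose the cells are shown because GATA factors bind the letters AGATAA. The windows run from 250 bases before to 50 bases after the gene start (RefSeq, build GRCm38.p6, printed on the strand of the gene), and capitals mark AGATAA or its reverse complement TTATCT, the only motif searched.
Ms4a2, chr19:11623670-11623969, minus strand: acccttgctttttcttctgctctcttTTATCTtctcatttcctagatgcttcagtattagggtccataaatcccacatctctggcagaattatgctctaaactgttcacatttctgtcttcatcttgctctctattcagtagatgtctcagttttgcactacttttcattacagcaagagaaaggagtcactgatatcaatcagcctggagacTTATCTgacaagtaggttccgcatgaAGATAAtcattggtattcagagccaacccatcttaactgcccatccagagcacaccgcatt
Cpa3, chr3:20242132-20242431, minus strand: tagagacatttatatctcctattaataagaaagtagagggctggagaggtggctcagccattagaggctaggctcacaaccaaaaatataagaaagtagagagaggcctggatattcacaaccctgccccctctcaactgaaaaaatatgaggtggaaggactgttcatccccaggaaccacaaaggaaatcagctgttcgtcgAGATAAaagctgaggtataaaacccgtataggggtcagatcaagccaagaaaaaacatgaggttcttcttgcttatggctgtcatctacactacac
Mcpt8, chr14:56085148-56085447, minus strand: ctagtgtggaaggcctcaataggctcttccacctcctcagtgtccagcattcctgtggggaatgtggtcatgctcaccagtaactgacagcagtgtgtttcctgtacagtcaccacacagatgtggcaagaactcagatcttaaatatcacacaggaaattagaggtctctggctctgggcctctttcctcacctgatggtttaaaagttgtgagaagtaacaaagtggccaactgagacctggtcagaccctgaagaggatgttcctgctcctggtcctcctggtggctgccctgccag
Ms4a2 held 3 matches and Cpa3 and Fcer1a 1 each, while the windows of Mcpt8 and Gata2 held none. Of 27025 genes with a window, 12.7% held a match, and of the 35 genes found in the table among the 50 of highest ratio to other cells, 8 (22.9%) did. In GENCODE M21, on the same assembly, the genes themselves span chr3:20215620-20242181 (Cpa3), chr14:56082166-56085273 (Mcpt8), chr19:11615523-11623719 (Ms4a2), chr1:173221284-173227214 (Fcer1a) and chr6:88193891-88207032 (Gata2). Mcpt4 (chr14:56059629-56062313) and Cma1 (chr14:55941451-55944675) lie on the same chromosome as Mcpt8, and Tpsb2 and Tpsab1 lie together on chromosome 17.

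Receptors for growth factors and alarmins also differed between the subsets. Kit, the receptor of stem cell factor, averaged 12.5 CP10k in mast-type and 14.6 CP10k in double-positive cells and had no read in any of the 16 basophil-type cells. Il1rl1, the IL-33 receptor, averaged 24.9, 16.4 and 5.45 CP10k in mast-type, double-positive and basophil-type cells. The IL-18 receptor genes Il18r1 and Il18rap averaged 5.60 and 6.63 CP10k in basophil-type cells, against 0.227 and 0.199 CP10k in mast-type cells. Csf2rb, the shared beta chain for IL-3, IL-5 and GM-CSF, lay at 10.4, 15.6 and 15.2 CP10k, and Il3ra, the IL-3 receptor alpha chain, at 0.580, 0.525 and 0.0130 CP10k.

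On the surface, Cd200r3, an activating receptor of both cell types, averaged 6.93, 7.96 and 16.5 CP10k in mast-type, double-positive and basophil-type cells. Mrgprb2, the mouse receptor through which basic peptides and drugs trigger mast cells, averaged 8.62, 2.08 and 0 CP10k. The integrin genes Itgam and Itga2 averaged 5.44 and 2.96 CP10k in basophil-type cells, against 0.322 and 0.182 CP10k in mast-type cells. Cd9 averaged 22.4 CP10k, Lilrb4a, an inhibitory receptor, 73.7 CP10k and Cd69, an early activation marker, 20.6 CP10k in basophil-type cells, against 2.74, 12.5 and 3.52 CP10k in mast-type cells. Cd63, a granule membrane protein, averaged 18.7, 18.5 and 10.6 CP10k. Ccr3 and Ptgdr2, a chemokine and a prostaglandin D2 receptor, had no read in any of the 83 cells.

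Basophil-type cells held the highest mean levels of Il4, Il6, Csf1, Osm, Hgf, Ccl3, Ccl4, Ccl6 and Ccl9 among the classes compared. Ccl3 averaged 299 CP10k in basophil-type cells (27.6 to 849 CP10k per cell), against 2.08 CP10k in mast-type cells, 34.6 CP10k in neutrophils and 2.95 CP10k in macrophages. Ccl4 averaged 279, 8.41, 23.8 and 5.57 CP10k in the same classes, Ccl6 235, 0.836, 15.8 and 15.9 CP10k, and Ccl9 83.5, 1.37, 1.86 and 9.41 CP10k. These ligands attract monocytes and other leukocytes. Il6 averaged 73.0 CP10k and reached 1 CP10k in 15 of 16 basophil-type cells, against 3.51 CP10k in mast-type cells (15 of 51) and 0.129 CP10k in macrophages. Csf1, the macrophage growth factor, averaged 58.0 CP10k in basophil-type cells (16 of 16) and 2.63 CP10k in mast-type cells, against 6.53 CP10k in neutrophils. Osm and Hgf averaged 18.2 and 3.16 CP10k in basophil-type cells, against 1.07 and 0 CP10k in mast-type cells.

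Il4, the signature basophil cytokine, was uneven. It averaged 37.7 CP10k over the 16 basophil-type cells, reached 1 CP10k in 6 of them and had a highest value of 311.7 CP10k. In mast-type cells it averaged 0.606 CP10k and reached 1 CP10k in 9 of 51. Il13 averaged 2.18 CP10k in basophil-type (6 of 16), 2.98 CP10k in double-positive (5 of 15) and 0.726 CP10k in mast-type cells (5 of 51). Il5 had no read in any of the 83 cells, and Csf2 and Areg reached 1 CP10k in 1 cell each. Mast cells led in other chemokines: Ccl2, the CCR2 ligand, averaged 29.7 CP10k in mast-type and 0.754 CP10k in basophil-type cells, against 17.9 CP10k in macrophages, and Ccl7 averaged 20.6, 0.427 and 16.9 CP10k. Il1b and Cxcl2, which neutrophils carry at 186 and 158 CP10k, averaged 64.8 and 88.9 CP10k in basophil-type cells and 1.46 and 2.17 CP10k in mast-type cells.

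**Figure D2:**
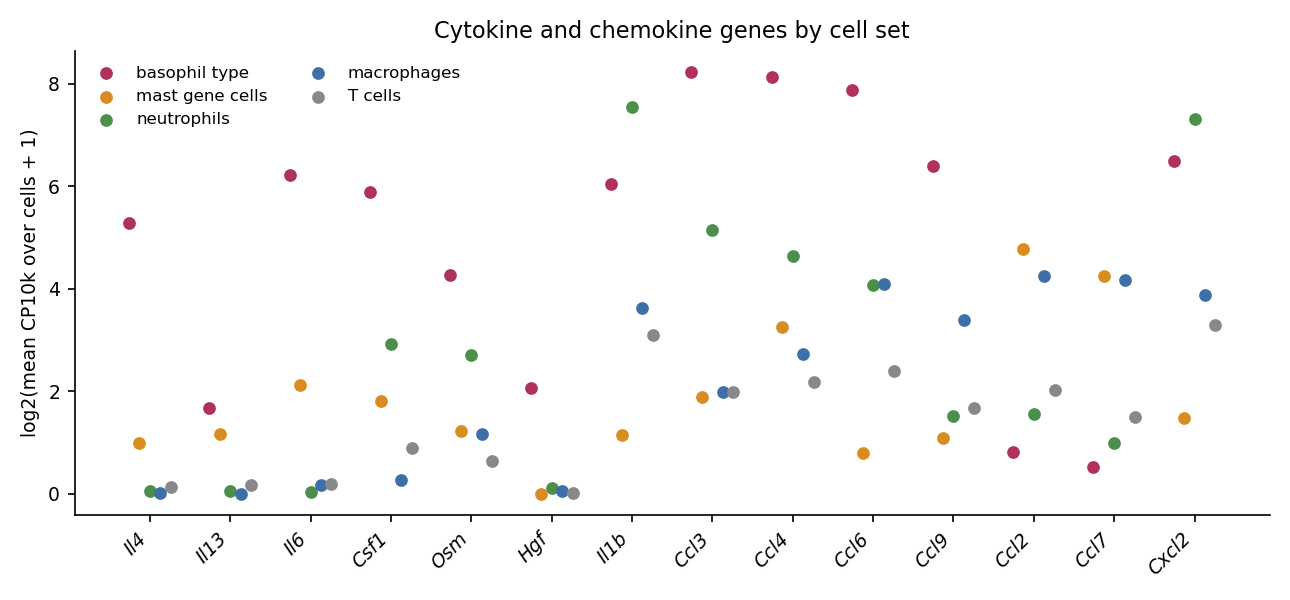
Mean level over cells, as log2(mean CP10k + 1), of 14 cytokine and chemokine genes in basophil-type cells (16), mast gene cells (mast-type and double-positive, 66), neutrophils (380), macrophages (381) and T cells (1228). Basophil-type cells lie highest for the genes from Il4 to Hgf and from Ccl3 to Ccl9, mast gene cells for Ccl2 and Ccl7, and neutrophils for Il1b and Cxcl2.

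The genes of histamine and lipid mediators showed both shared and separate parts. Hdc, which makes histamine, averaged 14.3 CP10k in mast-type, 12.97 CP10k in double-positive and 52.3 CP10k in basophil-type cells, against 0.872 CP10k in other kept cells. Slc18a2, which loads amines into granules, averaged 8.77, 6.25 and 0.995 CP10k. Tph1, the first enzyme of serotonin synthesis, averaged 8.94 and 4.13 CP10k in mast-type and double-positive cells and had no read in basophil-type cells. Cyp11a1, which starts steroid synthesis from cholesterol, was detected in both cell types, at 20.99, 27.7 and 10.9 CP10k, against 0.0297 CP10k in other kept cells. Hpgds, the prostaglandin D2 synthase, averaged 2.37 CP10k in mast-type cells and had no read in basophil-type cells. Ptgs2 (cyclooxygenase) and Alox5ap, in turn, averaged 21.2 and 13.2 CP10k in basophil-type cells, against 0.566 and 2.25 CP10k in mast-type cells. Ltc4s, the leukotriene C4 synthase, stayed under 1 CP10k in every one of the 83 cells.

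The target of the antibody was low in these cells. Cd274, which encodes PD-L1, averaged 1.13 CP10k in mast-type and 0.882 CP10k in basophil-type cells, against 10.55 CP10k in neutrophils. Pdcd1 (PD-1), Ido1 and Tnfsf4 had no read in any of the 83 cells. Of the antigen presentation genes, H2-Ab1 averaged 1.90 CP10k and Cd74 2.29 CP10k over all 83 cells, against 20.7 and 42.6 CP10k in macrophages. Arg1 averaged 0.789 CP10k, against 21.1 CP10k in macrophages. The receptor complex through which HMGN1 is known to act was also low: Tlr4 averaged 0.178 CP10k, Ly96 0.0180 CP10k and Cd14 0.498 CP10k over the 83 cells, and Tlr4 reached 1 CP10k in 4 of them, against 131 of 380 neutrophils.

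Interferon response genes stayed low, with Isg15 at 0.641 CP10k and Rsad2 at 0.245 CP10k over the 83 cells, against 8.50 and 19.7 CP10k in neutrophils. Immediate early genes, which enzymatic digestion of tissue is also known to induce, were high. Fosb averaged 44.2 CP10k in mast-type and 50.9 CP10k in basophil-type cells, against 7.30 CP10k in other kept cells. Jun averaged 36.9 and 12.3 CP10k, against 5.08 CP10k in other kept cells, and Egr1 19.3 and 38.0 CP10k, against 5.32 CP10k. The heat shock genes Hspa1a and Hspa1b reached 1 CP10k in 1 and 2 of the 83 cells.

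Outside the lists, the 25 genes of highest ratio to the other kept cells, taken over mice, were led by Mrgprb1, a relative of Mrgprb2, at 64.2-fold (7.20 against 0.0136 CP10k, with 0.1 added to both). The heparan sulphate enzymes Hs6st2 and Hs3st1 followed at 39.3-fold and 37.4-fold and Papss2, which makes the sulphate donor, at 28.1-fold. None of Hs6st2, Papss2 or the amine oxidase gene Maob had a read in basophil-type cells. Rab27b (15.2-fold) and Rab44 (12.4-fold), small GTPases of granule traffic, averaged 12.3 and 2.98 CP10k in mast-type and 0.371 and 5.15 CP10k in basophil-type cells. Egr3 averaged 7.63, 8.81 and 13.5 CP10k in mast-type, double-positive and basophil-type cells, at 20.9-fold over the others. The gene annotated as Wdr92 averaged 36.4, 50.3 and 103 CP10k and reached 1 CP10k in 81 of the 83 cells, against 4.96 CP10k in other kept cells.

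Over the 83 cells and 3738 genes, those most like Mcpt8 were Ifitm1 (Spearman rho = 0.70), the cadherin Cdh1 (0.60), Il6 (0.59) and Pglyrp1 (0.56), with Ccl6 at 0.55. Those most like Kit were Prkcb (0.68), Cd93 (0.63), Rab27b (0.62) and Tmem64 (0.62). The cells share mice, library and depth, and the correlations describe these cells.

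At the edge of the rule, 10 chosen cells had exactly 2 of the 5 genes and 68 kept cells within the limits had 1. The cells just inside had a median of 11833 reads, no Kit read, and means of 37.8 CP10k of Cpa3, 16.6 CP10k of Mcpt8 and 286 CP10k of Ccl3. Those just outside had a median of 65434.5 reads and means of 3.49, 1.02 and 18.2 CP10k of the same genes. Medians of Cpa3, Mcpt8 and Ccl3 were 1.23, 14.1 and 242 CP10k just inside and 0 CP10k for each just outside. Cpa3 reached 1 CP10k in 5 of the 10 cells just inside, with a highest value of 302.7 CP10k. Another 13 cells had 2 or more of the genes and passed a limit of C1qa, Trac or Siglech, with 112 CP10k of Cpa3, 93.0 CP10k of Cma1 and 6.84 CP10k of Trac on average. Whether these were doublets was not tested.

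Mast cells differed among themselves in Mcpt4. Of the 66 mast gene cells (mast-type and double-positive), 52 had Mcpt4 at 1 CP10k or more and 14 did not, with medians of 52853.5 and 69725 reads. Cells without Mcpt4 had Cpa3 (278 CP10k), Cma1 (255 CP10k) and Kit (14.2 CP10k) near the levels of cells with it (301.5, 267 and 12.6 CP10k). Tpsb2 averaged 125 CP10k without Mcpt4 and 280 CP10k with it, and Tpsab1 69.1 and 193 CP10k. Gzmb averaged 107 CP10k without Mcpt4 and 32.5 CP10k with it, Mcpt8 12.3 and 1.55 CP10k, and the actin-severing protein Scin 8.88 and 2.16 CP10k. Over the 66 cells, Mcpt4 had a Spearman rho of 0.58 with Tpsb2, -0.45 with Gzmb and -0.44 with Mcpt8, and Gzmb and Mcpt8 had 0.62. Of the double-positive cells, 7 had Mcpt4 at 1 CP10k or more and 8 did not, so they lay on both sides of this split. Their mean of Gzmb was higher and that of Mcpt4 lower than in mast-type cells. They averaged 0.403 CP10k of Ccl6, 4.74 CP10k of Ccl3 and 0.314 CP10k of Ccl9, far under basophil-type cells. Ccl4 reached 1 CP10k in 19 of the 52 mast gene cells with Mcpt4 and in 11 of the 14 without it. Cells without Mcpt4 came from 8 of the 14 mice. They made up 7 of the 24 mast gene cells of minP1 mice, 3 of 17 of PDL1, 1 of 16 of minP1_PDL1 and 3 of 9 of Control mice. All 3 of the Control cells were from Control_2.

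Treatment was not part of the rule, so the share of mast cells and basophils could be compared over mice. The share was 1.24%, 1.34%, 1.93% and 0.623% in the minP1 mice 1 to 4, 0.828%, 1.72% and 1.39% in the PDL1 mice and 0.539%, 0.949%, 0.411% and 1.82% in the minP1_PDL1 mice. It was 0.620%, 0.773% and 0.599% in the Control mice. These shares rest on 2 to 14 cells a mouse, and the 95% exact (Clopper-Pearson) interval of the highest, minP1_3, ran from 1.06% to 3.22%. Group means were 1.28% ± 0.537 in minP1, 1.31% ± 0.449 in PDL1, 0.930% ± 0.637 in minP1_PDL1 and 0.664% ± 0.0950 in Control (SD over mice). All 3 PDL1 mice lay above all 3 Control mice, while the minP1 and minP1_PDL1 mice overlapped them.

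The difference over the 4 groups did not pass (permutation test of F over 14 mice, F = 1.24, p = 0.344). The minP1 mean was 0.621 points above Control (two-sided exact permutation p = 0.0857, adjusted over 5 pairs p = 0.25) and the PDL1 mean 0.647 points above (exact permutation p = 0.1, which is as low as 6 mice in equal groups can reach). The minP1_PDL1 mean was 0.266 points above Control (exact permutation p = 0.714), 0.355 points below minP1 (exact permutation p = 0.4) and 0.381 points below PDL1 (exact permutation p = 0.4). Over both peptide strata anti-PD-L1 moved the share by 0.146 points (exact permutation p = 0.613), and over both antibody strata minP1 moved it by 0.120 points (exact permutation p = 0.694). The difference between mice with and without minP1 was lower under the antibody than without it (interaction -1.002 points, exact permutation p = 0.08). Without minP1_PDL1 replicate 4, which held 10 of the 20 cells of its group, the minP1_PDL1 mean lay 0.0311 points under Control. A share of CD45+ cells falls when other cells increase, and fewer cells cannot be told apart from poorer capture.

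**Figure D3:**
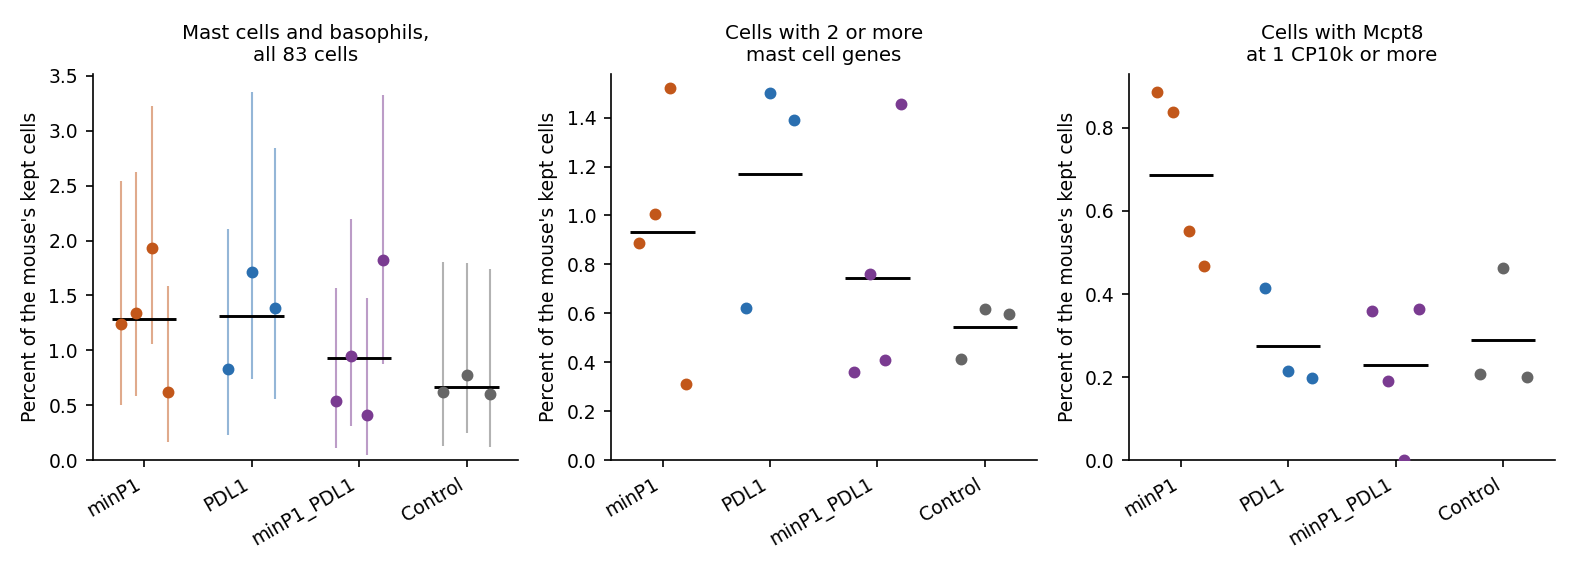
Percent of each mouse's kept cells that were mast cells or basophils (left, with 95% exact intervals), that had 2 or more mast cell genes (middle), or that had Mcpt8 at 1 CP10k or more (right); points are mice and bars group means. In the right panel the 4 minP1 mice, at 0.467% to 0.887%, lie above all mice of the other groups, at 0% to 0.464%.

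The cells with Mcpt8, basophil-type and double-positive together (31), were spread differently. They took 0.887%, 0.838%, 0.552% and 0.467% of kept cells in the minP1 mice, 0.414%, 0.215% and 0.198% in the PDL1 mice and 0.359%, 0.190%, 0% and 0.364% in the minP1_PDL1 mice. In the Control mice they took 0.207%, 0.464% and 0.200%. The group means were 0.686% ± 0.207 in minP1, 0.276% ± 0.120 in PDL1, 0.228% ± 0.172 in minP1_PDL1 and 0.290% ± 0.150 in Control. The minP1 mice did not overlap the other groups, although the gap to the highest Control mouse was small and each value rests on 0 to 5 cells. The permutation test over the 4 groups gave F = 5.97 and p = 0.0153. No pair passed after adjustment over the 5 pairs: minP1_PDL1 was 0.458 points below minP1 (exact permutation p = 0.0286, adjusted p = 0.143) and minP1 0.396 points above Control (exact permutation p = 0.0571, adjusted p = 0.143). Over both peptide strata the antibody moved this share by -0.236 points (exact permutation p = 0.0386, adjusted over the 2 agents p = 0.0771). This subset was an alternative to the whole set. The 16 basophil-type and 1 remaining cell alone, a split added after the data had been seen, were 0.233 points higher in minP1 than in Control (0.354% ± 0.0440 and 0.120% ± 0.107, exact permutation p = 0.0286, adjusted over the 5 pairs p = 0.143). Over the 4 groups this split gave F = 3.31 (permutation p = 0.0640), and minP1_PDL1 was 0.170 points below minP1 (exact permutation p = 0.114). The 66 mast gene cells took 0.931% ± 0.496 in minP1, 1.17% ± 0.479 in PDL1, 0.746% ± 0.506 in minP1_PDL1 and 0.543% ± 0.113 in Control.

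The levels of Cpa3, Mcpt8 and Kit in the 4 groups overlapped. Cpa3 averaged 198 ± 67.9 CP10k in minP1, 235 ± 84.4 CP10k in PDL1, 251 ± 79.8 CP10k in minP1_PDL1 and 266 ± 56.3 CP10k in Control mice, and ranged over mice from 104.1 (minP1_4) to 326 CP10k (Control_3). Mcpt8 averaged 12.1 ± 2.05, 5.32 ± 7.91, 6.67 ± 5.01 and 11.2 ± 9.63 CP10k in the same order, and Kit 10.3 ± 1.82, 10.3 ± 3.502, 10.3 ± 2.88 and 9.56 ± 2.93 CP10k. These means over a mouse's cells follow its mix of mast cells and basophils.

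Gene levels were tested on reads summed per mouse, with edgeR's quasi-likelihood test on mice that had at least 5 mast cells and basophils. Only 8 mice met this limit: minP1 1 to 3, PDL1 2 and 3, minP1_PDL1 2 and 4, and Control 2. Every comparison with Control thus rested on the 5 cells of a lone untreated mouse, whose spread was assumed to equal that of the others. Over 9769 genes, 16 were called in minP1 against Control (0.164% of genes), 48 in PDL1 against Control (0.491%) and 30 in minP1_PDL1 against Control (0.307%), at an adjusted p under 0.05. Anti-PD-L1 over both peptide strata gave 45 (0.461%), minP1 over both antibody strata 11 (0.113%) and the interaction of the agents 16 (0.164%). With at least 3 cells per mouse, a limit that 13 mice and all 3 Control mice met, edgeR called 0 of 6408 genes in each of the 6 comparisons. At an unadjusted p under 0.05 it then had 299 to 426 genes, and DESeq2 called 2 to 14 genes.

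In the 8-mouse fit Mcpt4 had the smallest adjusted p of the genes called higher in each treated group. Mcpt4 was higher in minP1 (log2 change 2.65 ± 0.34 SE, adjusted p = 4.8e-11, edgeR), in PDL1 (3.67 ± 0.37, adjusted p = 7.6e-19) and in minP1_PDL1 (3.31 ± 0.36, adjusted p = 1.2e-15) than in that Control mouse. Per mouse, Mcpt4 averaged 102, 78.3, 86.4 and 46.0 CP10k in minP1, 51.05, 176 and 202 CP10k in PDL1, 109.7, 144, 80.1 and 182 CP10k in minP1_PDL1, and 134, 50.4 and 190 CP10k in Control mice. The 2 Control mice outside that fit lay above all 4 minP1 mice. In the 13-mouse fit the Mcpt4 change was -0.48 ± 0.42 in minP1 (adjusted p = 1.0, edgeR), 0.39 ± 0.45 in PDL1 and 0.31 ± 0.45 in minP1_PDL1. Of the 4 mast gene cells of Control_2, 3 lacked Mcpt4.

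Ccl7, Jun and Mrgprb1 were called higher in all 3 treated groups in the 8-mouse fit and showed the same dependence. Mrgprb1 averaged 9.24, 6.02, 12.01 and 0 CP10k in minP1, 0, 6.93 and 17.7 CP10k in PDL1, 0, 1.67, 0 and 6.27 CP10k in minP1_PDL1, and 18.4, 0.0327 and 22.4 CP10k in Control mice. Its calls (log2 7.10, 7.498 and 6.36 in minP1, PDL1 and minP1_PDL1) had the opposite sign in the 13-mouse fit (-0.69, -0.49 and -1.58, each with adjusted p = 1.0, edgeR), in which Control_1 and Control_3 held the highest levels. Ccl7 averaged 20.2, 8.93, 12.1 and 0.0890 CP10k in minP1, 9.44, 5.25 and 53.8 CP10k in PDL1, 10.46, 4.18, 0 and 16.4 CP10k in minP1_PDL1, and 14.0, 1.21 and 32.5 CP10k in Control mice. Jun averaged 17.7, 13.1, 18.6 and 6.69 CP10k in minP1, 88.9, 24.4 and 32.2 CP10k in PDL1, 40.0, 33.0, 18.2 and 38.6 CP10k in minP1_PDL1, and 30.04, 3.32 and 81.3 CP10k in Control mice. Control_2 was the lowest of the 3 Control mice for all 3 genes. In the 13-mouse fit Jun was -1.15 ± 0.50 in minP1 (adjusted p = 1.0, edgeR), the opposite sign of its call. The tryptases Tpsab1 and Tpsb2 were called higher in PDL1 (log2 2.15 and 1.64), with 0.22 and -0.05 in the 13-mouse fit.

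**Figure D4:**
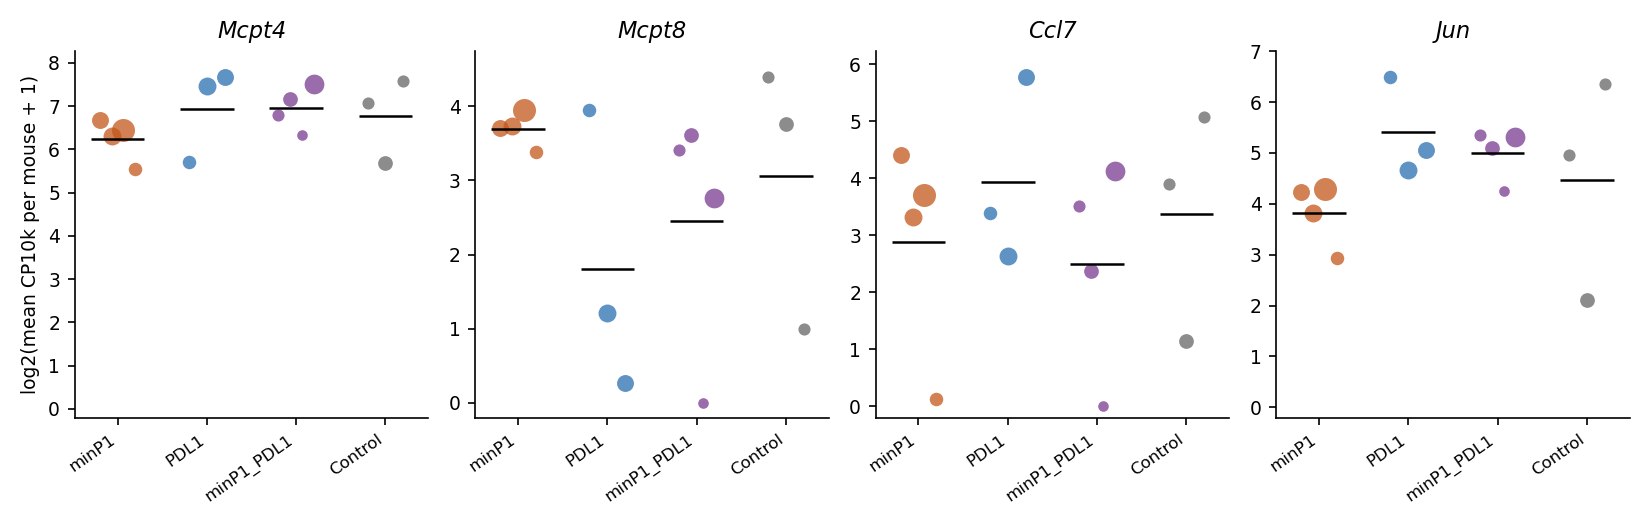
Mean level of Mcpt4, Mcpt8, Ccl7 and Jun per mouse, as log2(mean CP10k + 1) over its mast cells and basophils; each point is a mouse, its area grows with the number of cells (2 to 14), and bars are group means. The Control mouse of 5 cells is the lowest Control mouse for Mcpt4, Ccl7 and Jun.

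Cxcl9 and Spp1 were called lower than in Control in all 3 treated groups of the 8-mouse fit, and Lyz2, Cd74, Acod1 and Il1b in PDL1. Cxcl9, a T cell attractant of macrophages, averaged 0.0225, 0, 0.162 and 0 CP10k in minP1, 0.0336, 0.00706 and 0.0229 CP10k in PDL1, 0.266, 0.00992, 0 and 0.941 CP10k in minP1_PDL1, and 0, 9.57 and 0.812 CP10k in Control mice. Control_2 stood far above the other 13 mice. Spp1, osteopontin, averaged 0 to 2.53 CP10k in the 11 treated mice, against 0.1705 CP10k in Control_1, 9.86 CP10k in Control_2 and 10.8 CP10k in Control_3, so that Control_1 lay within the range of the treated mice. Spp1 in minP1 had the smallest adjusted p of all 6 comparisons of the 13-mouse fit (log2 change -5.30 ± 1.15 SE, adjusted p = 0.176, edgeR). With a robust estimate of spread on the same 13 mice, an alternative added after the data had been seen, Spp1 was called lower in all 3 treated groups and Cxcl9 in minP1 and PDL1. In the other kept cells Spp1 averaged 14.3 CP10k and Cxcl9 2.47 CP10k. The macrophage list of 10 genes summed to 4.33 CP10k in minP1 (1.98 to 5.59 over mice), 4.15 in PDL1 (0.469 to 9.18), 4.66 in minP1_PDL1 (0 to 9.88) and 8.07 in Control mice (3.09 to 12.2). The conventional dendritic cell list of 8 genes summed to 1.76 CP10k in minP1 (0.0373 to 5.66), 0.463 in PDL1 (0.183 to 0.627), 0.635 in minP1_PDL1 (0.0514 to 1.56) and 4.36 in Control mice (0.0568 to 7.71). The part of both lists in these differences was not tested.

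Between the agents, minP1 over both antibody strata called Cxcl2 (log2 change 5.24 ± 0.53, adjusted p = 1.2e-18, edgeR) and Ifitm1 (3.33 ± 0.52, adjusted p = 3.2e-07) higher in the 8-mouse fit, and Spp1 lower. In the 13-mouse fit these had the same sign and did not pass (Cxcl2 2.70 ± 0.79, adjusted p = 0.838). Anti-PD-L1 over both peptide strata called Ccl6 lower in the 8-mouse fit (log2 change -2.22 ± 0.33, adjusted p = 4.7e-08, edgeR), with -0.75 ± 0.58 in the 13-mouse fit (adjusted p = 1.0). Ccl6 is a gene of the basophil-type cells, of which minP1 mice held 9, PDL1 mice 2, minP1_PDL1 mice 3 and Control mice 2, and the part of this mix in the differences was not tested.

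The calls of the 8-mouse fit are given by list below. Over all genes tested, the share called was 0.164% in minP1, 0.491% in PDL1 and 0.307% in minP1_PDL1. The granule protease, IgE receptor and transcription factor lists hold the 5 genes that chose the cells, and the levels of those genes are a description only. The counts for these lists include such genes where they were tested, so these counts are a description too. Of the 14 tested genes of the granule protease list, 3 rose and 0 fell in minP1, 5 rose and 1 (Mcpt8, a gene of the rule) fell in PDL1, and 3 rose and 0 fell in minP1_PDL1, with median log2 changes of 1.03, 1.49 and 1.10 against 0.14, 0 and 0 over all genes tested. No gene of the IgE receptor, transcription factor, mediator or interferon response lists was called in these 3 comparisons. At an unadjusted p under 0.05, in minP1, PDL1 and minP1_PDL1 in turn, there were 1, 2 and 1 of 14 IgE receptor genes, 2, 5 and 4 of 14 transcription factors, 3, 6 and 5 of 13 mediator genes and 0 of 12 interferon response genes, against 319 (3.27%), 464 (4.75%) and 414 (4.24%) of the 9769 genes tested. Of the 20 tested cytokine and chemokine genes, 2 rose and 0 fell in minP1, 2 rose and 3 fell in PDL1 and 3 rose and 1 fell in minP1_PDL1. Of the 14 tested immediate early and heat shock genes, Jun alone rose in minP1 and in PDL1, and Jun and Fos in minP1_PDL1. Of the 10 tested checkpoint and antigen presentation genes, 2 fell in PDL1 and in minP1_PDL1 and 0 in minP1. All of these counts of called genes were 0 in the 13-mouse fit.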

How the data were processed

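Single CD45+ cells of 14 hashtagged tumours were profiled with BD Rhapsody. The authors deposited 1 table of read counts (whole numbers per gene and cell, not collapsed by molecule) and, per the labels' protocols, assigned mice and doublets from hashtag reads. Per the submitters' processing notes, cutadapt 2.10, Bowtie2 2.3.4.1, Seurat 2.3.4 and build mm10 were used. The 147 columns of doublets or undetected tags were not used. Cells with over 25% mitochondrial reads (383 of 8115) were left out. Counts were scaled to CP10k (numpy 2.4.6, pandas 2.3.3, Python 3.11.15). Shares were compared over mice by permutation (scipy 1.17.1; 100000 permutations for F). Summed counts were tested with edgeR 4.0.16 (R 4.3.3, TMM, filterByExpr, Benjamini-Hochberg), with DESeq2 1.42.0 as an alternative. The common biological coefficient of variation of the 8-mouse fit was 1.24. A trial of the code on simulated data used a smaller spread, so it does not show how the test behaves at this one. Other alternatives were scaling, gene and cell filters, a replicate block and leaving out each mouse. Whether replicate numbers pair mice was not settled. Correlations of deviations were -0.0165 to 0.0119 in same-numbered mice of the 8-mouse fit. No Control mouse was among them and each mouse had few cells, so they cannot exclude pairing. Intervals cover counting error only, and each SE of an edgeR log2 change was calculated back from the change and its F statistic. The members and gene lists were chosen with earlier results of these data known. Named genes were those of 11 gene lists, the 25 of highest ratio to other cells, up to 8 called per direction and the 15 most like Mcpt8 or Kit.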

Additional observations from a re-analysis of the deposited data

Results flagged for a closer look

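The effect of 1 agent differed with the other agent, by edgeR's test of the interaction on 8 mice, for 16 genes. The interaction on the log2 scale was positive for Cxcl9 (10.75), Mcpt8 (5.494), Ly6a (8.829), Acod1 (8.019), Ccr2 (8.495), Thbs1 (12.97), Osm (4.725) and Cd14 (8.681). It was negative for Mrgprb1 (-8.235), Mcpt4 (-3.01), Mcpt2 (-15.37), Ccl7 (-4.727), Tpsab1 (-2.037), Hist1h2ao (-9.604), Top2a (-5.493) and Jun (-2.526). All 16 rest on the 5 cells of 1 Control mouse, and Mcpt2 and Hist1h2ao had no read in it. Acod1 and Thbs1 had no read in either PDL1 mouse of that fit, and Thbs1 none in 3 other treated mice, so the size of the values of these 4 genes depends on the prior count. Mcpt8 is one of the genes that chose the cells, so its value is a description only. With at least 3 cells per mouse (13 mice), 0 of 6408 genes passed, with 351 at an unadjusted p under 0.05, and 12 of the 16 had the same sign. Mcpt4 (0.40), Ccl7 (0.11) and Jun (0.92) then had the opposite sign. No mouse stood apart in the 34 groups of 4 mice examined. These held minP1 or minP1_PDL1 mice only, so the PDL1 and Control mice, Control_2 among them, were not examined.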

How the results depend on the processing

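Under all alternatives but leaving out a mouse, the share comparisons kept their direction and side of the threshold in 67 of 80 values. For cells with Mcpt8, the 4 groups gave F = 5.97 (permutation p = 0.0153), and the differences were -0.458 points for minP1_PDL1 against minP1, -0.0143 for PDL1 against Control, -0.0617 for minP1_PDL1 against Control and -0.236 for anti-PD-L1 over both strata. For cells with fewer than 2 mast cell genes, minP1 against Control was 0.233, minP1_PDL1 against PDL1 0.0429 and anti-PD-L1 -0.0752 points; for those with at least 2, minP1 over both strata was -0.0185 points. Among kept cells with Ptprc, minP1_PDL1 against Control was -0.0468, anti-PD-L1 -0.0420 and minP1 -0.00487 points. With the replicate block, minP1_PDL1 against Control was -0.0311 points, and whether the numbers pair mice was not settled. Leaving out 1 mouse each gave -0.0311 to 0.439 points for minP1_PDL1 against Control, -0.00217 to 0.267 for anti-PD-L1 and -0.0290 to 0.230 for minP1, the lowest each without minP1_PDL1 replicate 4. The causes were not tested.

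Counts of called genes follow, in the order minP1, PDL1 and minP1_PDL1 against Control, anti-PD-L1, minP1 and interaction. They were 0, 0, 0, 0, 0 and 0 with at least 3 cells per mouse. On those mice a robust fit gave 2, 4, 1, 0, 1 and 2, and DESeq2 7, 11, 13, 14, 2 and 4. Mast gene cells alone (10 mice) gave 2, 3, 3, 4, 1 and 3. The replicate block gave 14, 52, 35, 54, 9 and 16, without change beyond 1.5 times. Leaving out 1 mouse gave 15 to 26, 27 to 67, 17 to 46, 26 to 65, 9 to 18 and 12 to 26, with counts moved most without minP1 replicate 3, PDL1 replicate 3 and minP1_PDL1 replicates 2 and 4. DESeq2 on 8 mice, other size factors, no filter and the robust fit stayed within 1.5 times. Fits with at least 10 cells per mouse, with Mcpt8 cells alone, and without Control replicate 2 could not be made. The robust, split and DESeq2 settings on 13 mice were chosen after seeing the data.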

Other observations

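Cma1, the mast cell chymase, was read more often than other mast cell genes in cells of the natural killer gate (Ncr1 at 1 CP10k or more, Trac and C1qa under 1), chosen for mention after its values were seen. It reached 1 CP10k in 47 of 1114 such cells (4.22%, 1.37% to 7.77% over mice), against 0.718% for Cpa3, 0.539% for Tpsb2 and 0.269% for Mcpt4 in the same cells. In T cells it reached 1 CP10k in 0.977%, and Cpa3 in 0.814%. Cma1 was also ahead of Cpa3 in macrophages (7 against 2 of 381 cells) and in neutrophils (7 against 4 of 380 cells). In all other kept cells, which include the natural killer gate, it reached 1 CP10k in 1.99%, and Cpa3 in 0.745%. After thinning to 10000 reads, Cma1 had a read in 5.24% of the natural killer gate and Cpa3 in 2.30%. The same values were 2.44% and 2.103% in T cells and 3.35% and 2.00% in all other kept cells.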
